A study of Mus musculus with 4 samples.

Results

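The 10 genes described here are the 2 corticosteroid receptor genes, Nr3c1 and Nr3c2, and 8 genes known as targets of those receptors, Fkbp5, Tsc22d3, Sgk1, Zbtb16, Ddit4, Klf9, Map3k6 and Errfi1. They were chosen by name from 35427 genes, with earlier results of these data known. All 10 were among the 14907 genes with enough reads to be compared. The hippocampus of C57BL/6J mice aged 4 months, carrying P2RY12CreER and the Rpl22HA RiboTag allele, was the source of all RNA. In the sleep-deprived group (SD) the mice were fear conditioned and then kept awake for 6 h. The control group, from the same line and with the same training, slept during those 6 h. Fear conditioning, in which a place or a cue comes to predict a shock, was thus common to both groups, and no untrained mice were analysed here. Cre under P2RY12 is meant to switch on a tagged ribosomal protein in microglia, the macrophages of brain tissue, so that an antibody to the tag pulls down their ribosomes with the bound messages. Each sample pooled 2 mice. One label field names sleep deprivation for all 4 samples, and groups were therefore read from the sample titles.

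Corticosterone, the main glucocorticoid of mice, enters cells and binds 2 nuclear receptors. The mineralocorticoid receptor (Nr3c2) binds it with high affinity and is abundant in hippocampal neurons, while the glucocorticoid receptor (Nr3c1) is present in most cells, microglia included, and is filled when the hormone is high, as in stress. The bound receptor leaves its chaperones, enters the nucleus and binds a palindromic DNA element, the glucocorticoid response element, near or far from the genes it regulates. Corticosterone also follows a daily rhythm, and keeping animals awake can raise it.

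The SD group came as 2 files, of 14473030 and 14431647 estimated reads, and the control group as 2, of 14877011 and 14833320. Within a group the files differed by less than sampling noise (chi-square per degree of freedom 0.226 for SD over 14409 genes and 0.334 for control over 14695 genes). Their mean was therefore taken as 1 library, which leaves n = 1 per group, no replicate check and no p-value. Levels are given as TPM, the deposited abundance per transcript length, or as CPM, reads scaled to library size. A ratio is the CPM in SD over that in control, with its exact 95% counting interval in parentheses. The intervals hold counting error only and say nothing about differences between mice. A gene is called higher or lower where the ratio reached 2-fold and the interval excluded 1.

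Of the 8 targets, 3 were called higher in SD, Zbtb16, Map3k6 and Fkbp5, and Sgk1 and Ddit4 stood just under 2-fold. Tsc22d3 and Errfi1 had ratios between 1 and 1.5, and Klf9 was below control. Both receptor genes were below control, Nr3c2 by more than Nr3c1, and neither was called. Among all 14907 genes compared, 4.24% were called higher and 5.65% lower, beside 3 and 0 of the 10 genes here. By deposited TPM the split over all genes was 1351 higher and 639 lower, in place of 632 and 842. At a limit of 1.5-fold, 5 of the 10 were called higher and 1 lower (Nr3c2), beside 12.5% and 13.6% of all genes. The median ratio of the 10 was 1.59, beside 0.994 over all genes compared, and their ratios ran between 0.565 and 4.19. Since the 10 were chosen with earlier results of these data known, these counts and medians are description only.

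**Figure D1:**
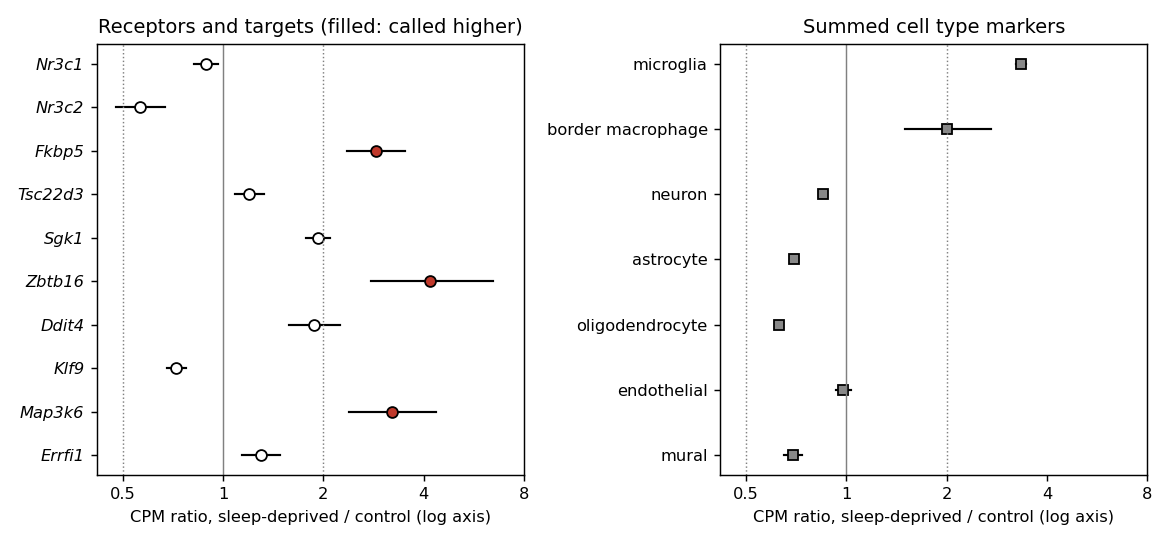
The left panel shows the CPM ratio of SD over control on a log axis for the 10 genes, with 95% counting intervals as bars (n = 1 library per group), solid line at 1 and dotted lines at 2-fold. Filled points are the 3 genes called higher, from 2.88 to 4.19. The right panel shows the same ratio for the summed markers of 7 cell types, where microglia stood at 3.34 and oligodendrocytes at 0.626.

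The RNA held messages of many cell types, and their balance differed between the libraries. Summed microglial markers were at 824.9 CPM in SD and 246.9 CPM in control, a ratio of 3.34 (3.22 to 3.47), and 16 of 20 were called higher. Tmem119, a marker of resident microglia, was at 19.9 CPM in SD and 4.98 CPM in control. Neuronal markers, general ones and those of neuron subtypes together, summed to 3712 CPM in SD and 4373 CPM in control. Of these 14 markers, 5 were above control and 9 below. Among them the synaptic gene Snap25 was at 1048.8 CPM in SD and 1412.6 CPM in control (0.742), and Slc17a7, the vesicular transporter gene of excitatory neurons, at 259.7 and 152.8 CPM (1.70, 1.61 to 1.79). Astrocyte markers summed to 1755 CPM in SD and 2523 CPM in control (ratio 0.696), and oligodendrocyte markers to 2243 and 3580 CPM (ratio 0.626). Endothelial markers were at 191.9 CPM in SD and 195.8 CPM in control (ratio 0.980), and mural cell markers at 124.7 and 180.4 CPM (ratio 0.691). Of 7 border macrophage markers 4 were measured, at 9.62 CPM in SD and 4.78 CPM in control, with Pf4, Ms4a7 and Cbr2 not measured. Markers of cells other than microglia were thus abundant in both libraries, and no level below was assigned to a cell type. In pulldown RNA with 1 library per group, the number of cells of a type, their RNA per cell and the yield of the pulldown cannot be told apart. The part of this balance in the ratios of the 10 genes was not tested.

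The order of abundance of the 10 genes differed between the libraries. By TPM the SD library ran Sgk1 (109.8), Tsc22d3 (64.8), Klf9 (45.4), Ddit4 (31.1), Errfi1 (24.7), Nr3c1 (24.0), Fkbp5 (15.2), Map3k6 (13.6), Nr3c2 (5.24) and Zbtb16 (3.23). The control library ran Klf9 (53.4), Sgk1 (48.2), Tsc22d3 (46.7), Nr3c1 (21.2), Errfi1 (16.2), Ddit4 (14.1), Nr3c2 (7.90), Fkbp5 (6.35), Map3k6 (5.91) and Zbtb16 (0.657). Sgk1 headed the SD order and Klf9 the control order, and Zbtb16 was last in both. Errfi1 and Nr3c1 overlapped between files in SD and their order there cannot be told. The TPM scale itself was shifted, with a median TPM ratio of 1.16 over all genes compared (log2 0.22), so that a TPM ratio above 1 is partly that shift.

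**Figure D2:**
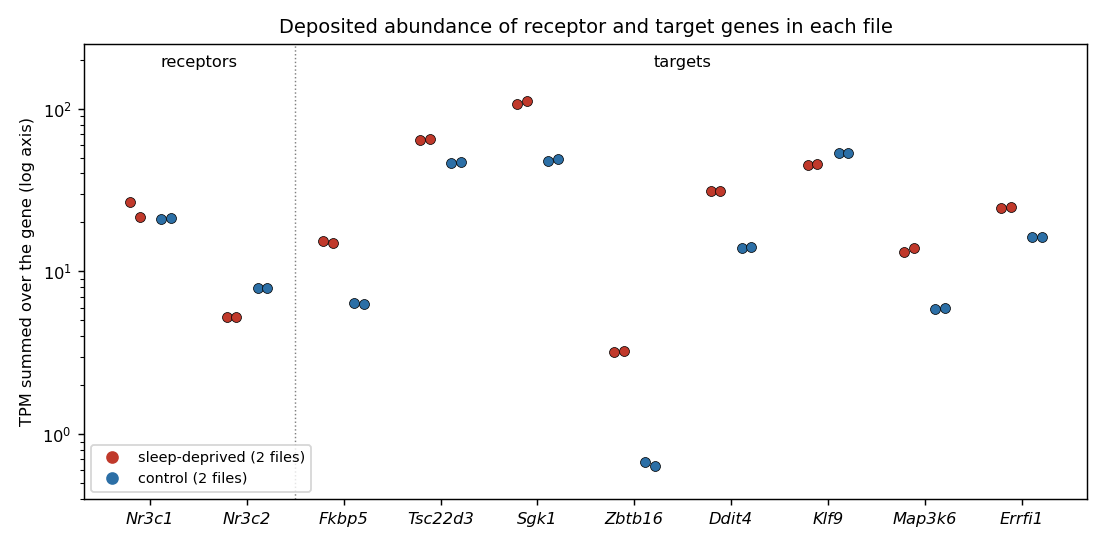
Points are the deposited TPM of each file on a log axis, summed over the transcripts of a gene, with the 2 SD files left of the 2 control files. Zbtb16 lies near 3.2 in SD and 0.66 in control, Sgk1 above 100 in SD and near 48 in control, while Klf9 and Nr3c2 lie lower in SD.

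Nr3c1, the glucocorticoid receptor gene (chr18:39410545-39519421, GRCm38, minus strand), was present at 983 and 981 estimated reads in the SD files and 1176 and 1174 in the control files. Its CPM was 69.4 in SD and 78.1 in control, a ratio of 0.889 (0.816 to 0.969). Nearly all of its reads were assigned to a single coding transcript, Nr3c1-204, with 99.8% in SD and 99.6% in control. This transcript has 0 bases found in no other transcript, so the assignment rests on the authors' quantification model. The direction of the small difference in the gene turned with the scale. By deposited TPM the ratio was 1.14, and by TPM over the median gene it was 0.978. In the first SD file 2 reads on Nr3c1-207, a transcript with an effective length of 51.3 bases, accounted for 5.15 of 26.6 TPM, and the second SD file, without them, had 21.5 TPM.

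Nr3c2, the mineralocorticoid receptor gene (chr8:76899442-77245012, plus strand), had 214 and 215 reads in the SD files and 405 and 401 in the control files. The ratio was 0.565 (0.477 to 0.669), short of the 2-fold limit. In TPM it was at 5.22 and 5.27 in the SD files and at 7.90 in each control file. Nr3c2-203 was assigned 100% of reads in SD and 95% in control. The rest in control lay on Nr3c2-204, with 40.3 reads in control file 1 and 0 in control file 2. Nr3c2-203 has 0 bases found in no other transcript, and shared reads are divided by the authors' quantification model. The 2 shares therefore show no difference between groups. Of the exon bases of Nr3c2, 3.82% lie in exons of Gm10649 on the other strand. Whether the authors' counting used strand was not stated in the sources used here.

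Fkbp5 encodes FKBP51, a co-chaperone that holds the glucocorticoid receptor in a state of low hormone affinity and is itself switched on by the receptor, a short feedback loop. The gene (chr17:28399094-28517527, minus strand) had 373 reads in each SD file and 138 in each control file. CPM was 26.4 in SD and 9.17 in control, a ratio of 2.88 (2.36 to 3.52), and the gene was called higher under every alternative tried. Its main coding transcript Fkbp5-201 was at 331.7 and 333.8 reads in SD and 124.0 and 111.4 in control. Fkbp5-202 and Fkbp5-206 begin further upstream and have the same number of coding bases (1368). Together they had 35.1 and 35.2 reads in the SD files and 6.53 and 19.3 in the control files, and the control files placed them on different transcripts of the pair. The pair held 9.43% of the reads of the gene in SD and 9.34% in control (exact 95% binomial intervals 6.62 to 12.8% and 5.11 to 15.6%). No difference in the share of upstream starts was detectable at this depth and by this division of reads. Fkbp5-202 has 0 bases found in no other transcript. Shared reads are divided by the authors' quantification model, and the error of that division is outside these intervals. A short processed transcript, Fkbp5-212, named after its value was seen, had 0 reads in SD and 7.39 in control. Because its effective length is only 365 bases, those few reads made up 34.0% of the TPM of the gene in control, and with a correction for transcript length the ratio of Fkbp5 was 2.06 (1.69 to 2.53).

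Zbtb16 encodes PLZF, a transcription factor with zinc fingers that glucocorticoids induce in many cell types. The gene (chr9:48654297-48836222, minus strand) was the least abundant of the 10 and had the highest ratio. It had 118 and 119 reads in the SD files and 31 and 29 in the control files, all on the coding transcript Zbtb16-201. CPM was 8.34 in SD and 1.99 in control, a ratio of 4.19 (2.78 to 6.48). With 30 control reads the interval is wide, and the ratio ranged between 4.04 and 4.92 over the alternatives.

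Sgk1, the serum and glucocorticoid regulated kinase, acts on ion channels and transporters and is among the best known targets of both receptors. The gene (chr10:21882184-21999903, plus strand) had 1619 and 1621 reads in the SD files and 887 and 898 in the control files. CPM was 114.6 in SD and 59.3 in control, a ratio of 1.93 (1.78 to 2.10), which just missed the call. By deposited TPM it was 2.28 and called, and by TPM over the median gene 1.96.

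Sgk1 is read from several starts, and the protein forms differ at their beginning. Sgk1-201 encodes 431 residues, Sgk1-202 encodes 445 and Sgk1-204 encodes 524. All 3 share the last 1218 coding bases, and the first 75, 117 and 354 coding bases are their own. The first 60 coding bases of each are given because they show that the forms part from their first codon on, with the start codon in capitals (GENCODE M21, GRCm38, plus strand, chr10:21994750-21994809 for 201, chr10:21994064-21994123 for 202, chr10:21882639-21882698 for 204).
Sgk1-201: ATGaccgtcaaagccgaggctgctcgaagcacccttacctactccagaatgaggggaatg
Sgk1-202: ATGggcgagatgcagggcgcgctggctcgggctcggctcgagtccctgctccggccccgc
Sgk1-204: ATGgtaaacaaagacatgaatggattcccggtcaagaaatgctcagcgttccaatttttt

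Each form was above control by its own amount. Sgk1-201, the main form, was at 74.2 and 74.8 TPM in the SD files and 35.5 and 36.5 TPM in the control files, with 1237 and 1241 reads in the SD files and 737.6 and 753.1 in the control files. The ratio of its reads, scaled as above, was 1.77 (1.61 to 1.94). Sgk1-204, the long form, which starts at the upstream end of the gene, had 286.4 and 279.9 reads in the SD files and 116.4 and 101.6 in the control files, a ratio of 2.76 (2.21 to 3.48). It held 17.5% of the reads of the gene in SD (15.6 to 19.4%) and 12.2% in control (10.1 to 14.6%). Sgk1-201 held 76.5% in SD (74.3 to 78.5%) and 83.5% in control (80.9 to 85.9%). The binomial intervals of the groups did not overlap for either form, with counting error only. Of the bases of Sgk1-204, 73.8% lie in Sgk1-201, and Sgk1-201 has 22 bases found in no other transcript. Shared reads are divided by the authors' quantification model, and the error of that division is outside these intervals. By TPM, Sgk1-201 made up 67.9% of the gene in SD and 74.7% in control, and Sgk1-204 12% and 8.46%. Sgk1-202, a minor form named after its values were seen, had 33.4 and 20.4 reads in the SD files and 7.17 and 6.71 in the control files, a ratio of 4.10 (1.74 to 11.2). The SD files of this form differed from each other by more than those of the main form.

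Of the short transcripts of Sgk1, the retained-intron transcript Sgk1-208 had 16.2 and 36 reads in the SD files and 7.49 and 7.44 in the control files. The processed transcript Sgk1-211, at the upstream end, went the other way, with 4.93 and 5.42 reads in the SD files and 12.1 and 19.3 in the control files. Retained-intron transcripts together took 2.25% of Sgk1 reads in SD and 1.46% in control. Over all genes the same class took 13.3% in SD and 10.6% in control.

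The 250 bases before the starts of these forms, from RefSeq on GRCm38.p6, were searched for the receptor's palindrome, which reads AGAACA, any 3 bases, then TGTTCT. Windows that start exactly at Fkbp5-201, Klf9-201 and Tsc22d3-202 are not shown. Those of the 3 Sgk1 forms and of Map3k6 also start exactly at transcripts with reads described here. They are shown as examples that differ in the element. Capitals mark the full palindrome in the first, nothing in the second, a half-site (AGAACA or its reverse complement) in the third, and a looser palindrome (GNACA, any 3 bases, then TGTNC) in the fourth. The windows are chr10:21993640-21993889, chr10:21994416-21994665, chr10:21881934-21882183 and chr4:133240568-133240817, all on the plus strand.
Sgk1-202: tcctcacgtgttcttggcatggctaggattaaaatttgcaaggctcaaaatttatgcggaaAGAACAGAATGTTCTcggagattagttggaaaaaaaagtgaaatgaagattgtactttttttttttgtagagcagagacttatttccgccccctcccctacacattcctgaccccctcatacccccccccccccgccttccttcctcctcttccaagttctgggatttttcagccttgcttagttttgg
Sgk1-201: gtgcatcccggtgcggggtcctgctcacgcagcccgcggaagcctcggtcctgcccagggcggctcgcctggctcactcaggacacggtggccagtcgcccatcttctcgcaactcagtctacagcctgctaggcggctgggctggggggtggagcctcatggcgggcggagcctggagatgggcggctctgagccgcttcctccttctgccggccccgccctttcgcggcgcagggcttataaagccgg
Sgk1-204: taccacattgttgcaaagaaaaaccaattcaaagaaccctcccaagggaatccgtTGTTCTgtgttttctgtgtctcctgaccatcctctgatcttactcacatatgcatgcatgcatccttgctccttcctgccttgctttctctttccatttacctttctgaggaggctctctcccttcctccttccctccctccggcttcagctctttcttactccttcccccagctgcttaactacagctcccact
Map3k6-201: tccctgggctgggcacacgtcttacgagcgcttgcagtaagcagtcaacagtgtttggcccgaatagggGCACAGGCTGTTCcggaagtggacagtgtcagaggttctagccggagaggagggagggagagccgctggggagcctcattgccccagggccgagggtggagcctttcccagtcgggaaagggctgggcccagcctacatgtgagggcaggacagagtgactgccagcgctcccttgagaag

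The full palindrome began at position -189 from the start of Sgk1-202, and 3 of 32851 mouse promoter windows in the RefSeq table held it on either strand (0.00913%). The looser form, which any full palindrome also meets, was held by 0.387% of windows, and a half-site by 16.1%. Among the 10 genes, 8 had windows, 16 in all, and Nr3c1 and Zbtb16 had none. The windows of Tsc22d3 were nearest to the starts of Tsc22d3-202, Tsc22d3-203 and Tsc22d3-206. None lay directly before the start of Tsc22d3-201, the main transcript of that gene, so that stretch was not searched. Of the 16 windows 1 held the full palindrome, 2 the looser form (Sgk1-202 and Map3k6, at position -181 in the last) and 4 a half-site. The half-site windows were those of Sgk1-202, Sgk1-203 and Sgk1-204 and the upstream window of Tsc22d3, whose start lay 137 bases from that of Tsc22d3-203. The windows of Fkbp5, Ddit4, Klf9, Errfi1 and Nr3c2 held none of these letters. Receptor binding was not measured, and a match is a description of the letters only.

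Map3k6, a kinase of the stress-activated MAP kinase pathways, had 184 reads in each SD file and 61 in each control file. The gene (chr4:133240818-133252929, plus strand) was at 13 CPM in SD and 4.05 CPM in control, a ratio of 3.21 (2.39 to 4.36). This ratio is the sum of transcripts that behaved differently. The coding transcript Map3k6-201, of 29 exons and 4334 bases, had 130.8 and 130.7 reads in the SD files and 19.9 in each control file, a ratio of 6.97 (4.33 to 11.8). The processed transcript Map3k6-204, of 1062 bases, had 52.2 and 51.5 reads in the SD files and 41.1 in each control file, a ratio of 1.35 (0.879 to 2.08). For the coding transcript the groups were far apart, and for the processed one they were close.

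Map3k6-201 thus held 71.0% of the reads of the gene in SD (64.1 to 77.6%) and 32.7% in control (21.3 to 46.0%), and 31.3% and 8.80% of its TPM. Map3k6-204 lies at the 3' end, and 987 of its bases (92.9%) are the bases 3347 to 4333 of Map3k6-201, with 75 bases of its own. Reads in the shared bases are divided between them by the authors' quantification model, so the split amounts to how many reads fell on the last stretch of the gene and how many on the rest. Counting protein-coding transcripts alone, the ratio was 7.09 (4.41 to 12). With a correction for transcript length, which gives weight to the short transcript, it was 1.97 (1.47 to 2.68) and no longer a call.

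**Figure D3:**
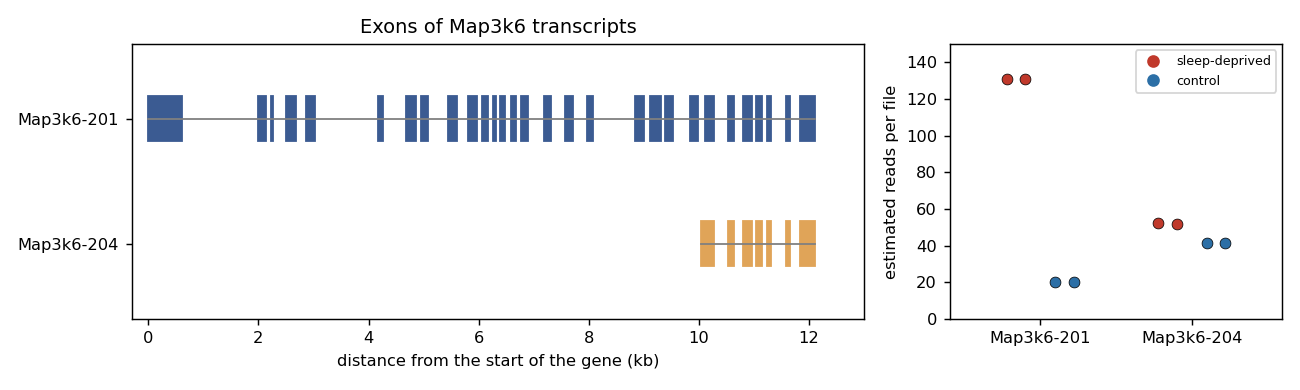
The left panel shows the exons of both transcripts as boxes against distance from the start of the gene in kb. The right panel shows estimated reads in each file, SD left of control, with Map3k6-201 near 131 in SD and 20 in control, and Map3k6-204 near 52 and 41.

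Tsc22d3 encodes GILZ, a leucine zipper protein that carries part of the anti-inflammatory action of glucocorticoids, in macrophages among other cells. The gene (chrX:140539528-140600659, minus strand) had 847 and 846 reads in the SD files and 749 and 748 in the control files. CPM was 59.8 in SD and 49.7 in control, a ratio of 1.2 (1.09 to 1.33), which stood at percentile 69.6 of all genes compared. The gene makes a short form, Tsc22d3-201 with 137 codons, and a long form, Tsc22d3-203 with 201, which share their last 293 coding bases. Their first 60 coding bases are shown because the forms begin at separate sites and part from the first codon (GENCODE M21, GRCm38, minus strand, chrX:140542908-140542967 for 201 and chrX:140598382-140598441 for 203, start codon in capitals).
Tsc22d3-201: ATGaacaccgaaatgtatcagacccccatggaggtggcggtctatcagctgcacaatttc
Tsc22d3-203: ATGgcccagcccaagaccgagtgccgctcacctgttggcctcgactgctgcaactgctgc

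The short form was the main transcript in both groups. It had 594.7 and 616.2 reads in the SD files and 509.5 and 483.9 in the control files, a ratio of 1.30 (1.15 to 1.46). It made up 71.9% of the TPM of the gene in SD and 65.8% in control, and by single file 70.8 and 73.0% in SD and 68.1 and 63.4% in control. The long form was rare, with 9.81 and 15.1 reads in the SD files and 14.5 and 13.3 in the control files, and the files overlapped. The processed transcript Tsc22d3-202, which shares 91.2% of its bases with the short form, had 141.9 and 113.5 reads in the SD files and 130.3 and 152.4 in the control files. The files of 1 library thus differed by more than the group means, 127.7 in SD and 141.3 in control. The retained-intron transcript Tsc22d3-205 took 11.6% of the reads in SD and 12.2% in control.

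**Figure D4:**
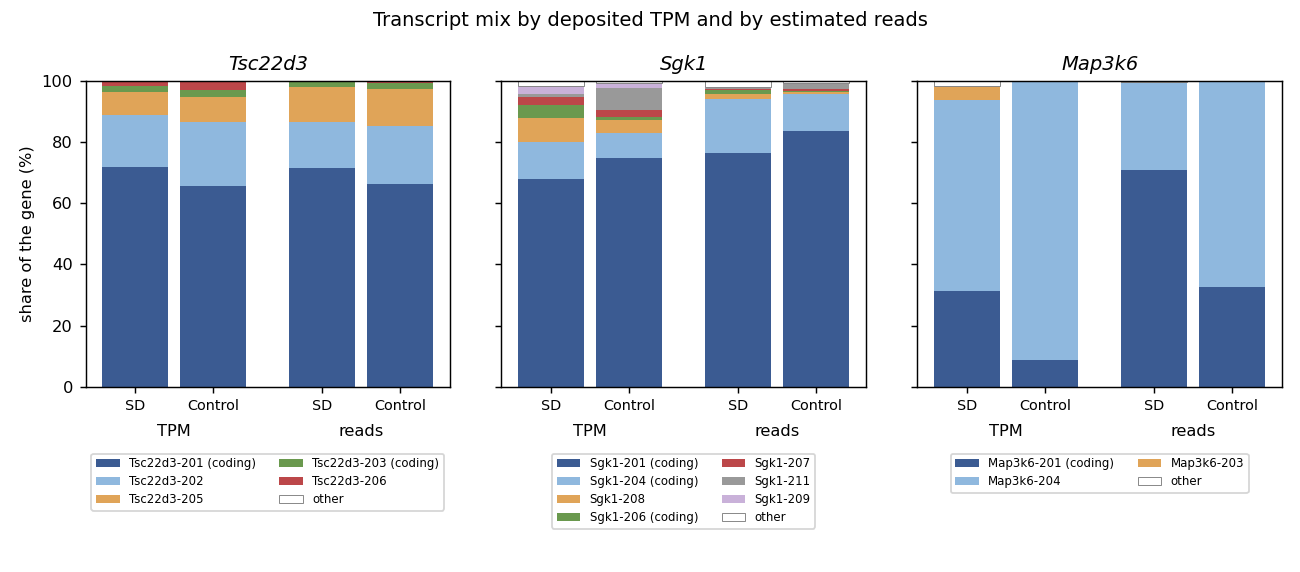
Stacked bars show the share of each transcript in Tsc22d3, Sgk1 and Map3k6 in percent, by deposited TPM on the left and by estimated reads on the right of each panel, with SD left of control. Map3k6-201 makes up 71.0% of reads in SD and 32.7% in control, while Tsc22d3-201 differs by far less.

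Ddit4, also called REDD1, restrains the growth kinase complex mTORC1 and is induced by glucocorticoids and by other stresses such as low oxygen. Its only transcript (chr10:59949669-59951834, minus strand) had 353 and 352 reads in the SD files and 199 in each control file. CPM was 24.9 in SD and 13.2 in control, a ratio of 1.88 (1.58 to 2.25). By deposited TPM, at 31.0 and 31.1 in SD and 14.0 and 14.1 in control, it was 2.2 and called.

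Errfi1, also called Mig6, is a feedback inhibitor of the epidermal growth factor receptor. The gene (chr4:150853919-150868892, plus strand) had 520 and 522 reads in the SD files and 429 and 422 in the control files, a ratio of 1.30 (1.14 to 1.48). Its transcripts Errfi1-201 and Errfi1-202 have the same number of coding bases (1383), share most of their sequence and could not be told apart. Control file 1 gave Errfi1-201 429 reads and Errfi1-202 0, and control file 2 gave them 174.6 and 247.4, although the sums for the gene were 429 and 422.

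Klf9, a Kruppel-like transcription factor that glucocorticoids and thyroid hormone induce in neurons, was the 1 target below control. The gene (chr19:23141226-23168134, plus strand) had 1435 and 1441 reads in the SD files and 2111 and 2110 in the control files. CPM was 101.7 in SD and 140.3 in control, a ratio of 0.725 (0.677 to 0.776), and Klf9-201 held 99.8% of the reads in both groups. It was below 1 under every alternative, between 0.700 and 0.851.

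Other genes of the hormone's pathway were read from lists made with earlier results of these data known. Of 30 further targets 29 were measured, and 3 were called higher and 1 lower, with a median ratio of 1.24. Over all genes compared, 4.24% were called higher and 5.65% lower, with a median of 0.994. The phosphatase gene Dusp1, which shuts off MAP kinases, was at 38.5 CPM in SD and 11.8 CPM in control, a ratio of 3.27 (2.76 to 3.90). Hif3a, a member of the hypoxia factor family, was at 41.4 CPM in SD and 16.5 CPM in control (2.51, 2.16 to 2.93). Plin4, which encodes a coat protein of lipid droplets, was at 19.5 and 8.31 CPM (2.35, 1.90 to 2.93). Anxa1, an anti-inflammatory mediator, was the 1 called lower, on 4 reads in SD and 19 in control (0.224, 0.0554 to 0.674). The 3 of highest mean CPM over both libraries were not called. The scaffold gene Nedd9 was at 516.0 CPM in SD and 283.6 CPM in control, a ratio of 1.82 (1.75 to 1.89). Fam107a was at 279.9 CPM in SD and 438.9 CPM in control (0.638, 0.613 to 0.663), and the stress gene Sesn1 at 148.0 and 119.4 CPM (1.24, 1.16 to 1.32). These targets thus lay on both sides of control, 18 above and 11 below.

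The chaperones that hold the receptors in the cytoplasm had 0 of 15 genes called, with a median ratio of 0.929, and 0 of 15 is near the share over all genes (4.24% higher, 5.65% lower). Of the 15, 5 were above control and 10 below. The 3 of highest mean CPM over both libraries were among those below. Hspa8 was at 454.9 CPM in SD and 709.7 CPM in control (0.641, 0.621 to 0.661), and Hsp90ab1, which binds the receptor directly, at 316.9 and 560.3 CPM (0.566, 0.545 to 0.586). Hsp90aa1, the stress-inducible HSP90 gene, had a ratio of 0.723 (0.695 to 0.751). Fkbp4 encodes FKBP52, the relative of FKBP51 that favours hormone binding and nuclear entry of the receptor. It was at 67.9 CPM in SD and 75.3 CPM in control (0.902, 0.827 to 0.984), against 2.88 for Fkbp5. By TPM, Fkbp5 was at 15.2 in SD and 6.35 in control, and Fkbp4 at 63.8 and 60.8, so Fkbp4 was the more abundant in both libraries.

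Coactivators and corepressors of the receptors likewise had 0 of 15 genes called, beside 4.24% higher and 5.65% lower over all genes, and a median ratio of 1.17. The corepressor gene Ncor1 was slightly above control (1.17, 1.13 to 1.21), and Smarca4, an ATPase of chromatin remodelling, was at 0.940 (0.897 to 0.985). Of 11 genes of corticosteroid metabolism and export 9 were measured, with a median ratio of 0.825 and 1 called higher. This was Akr1c14, a steroid dehydrogenase gene, on 15 reads in SD and 4 in control (3.99, 1.27 to 16.5). Star, the cholesterol carrier of steroid synthesis, was at 1 (0.871 to 1.15). The gene of the drug pump that exports corticosteroids at the blood-brain barrier, Abcb1a, was at 0.693 (0.591 to 0.811). H6pd, which feeds the enzyme that regenerates corticosterone, was at 1.12 (0.904 to 1.39). The gene of that enzyme, Hsd11b1, named after its value was seen, was at 7.21 CPM in SD and 12.9 CPM in control (0.560, 0.436 to 0.715).

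**Figure D5:**
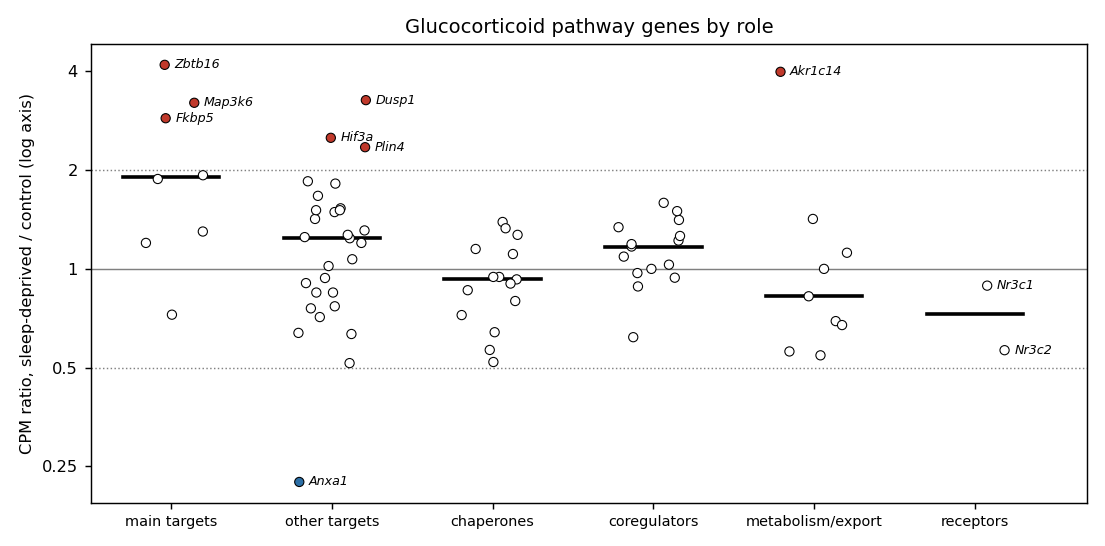
Points are the CPM ratios of SD over control on a log axis for the genes of each role, red where called higher and blue where called lower, with a bar at the median of each role and dotted lines at 2-fold. The 8 main targets have a median of 1.91, further targets 1.24, coregulators 1.17, chaperones 0.929, metabolism and export 0.825 and the 2 receptors 0.727.

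Close relatives of the targets were read beside them. Beside Sgk1, Sgk3 had a ratio of 1.23 (1.01 to 1.49), and Sgk2 was called lower on 4 reads in SD and 20 in control (0.213, 0.0529 to 0.635). Beside Tsc22d3, Tsc22d1 was at 109.5 CPM in SD and 169.3 CPM in control (0.647, 0.607 to 0.689) and Tsc22d4 at 38.8 and 42.1 CPM (0.923, 0.822 to 1.04). Ddit4l, a relative of Ddit4, was called lower on 5 reads in SD and 20 in control (0.266, 0.0780 to 0.730). Klf13, a close relative of Klf9, was at 59.7 CPM in SD and 71.6 CPM in control (0.834, 0.761 to 0.913). Klf15, a further glucocorticoid target of the family, had a ratio of 1.14 (0.936 to 1.38), and Klf2 was called higher at 5.44 CPM in SD and 2.13 CPM in control (2.56, 1.68 to 4.00). Of the other steroid receptor genes, the progesterone receptor gene Pgr was called lower at 3.11 CPM in SD and 6.71 CPM in control (0.464, 0.318 to 0.667), and the oestrogen receptor gene Esr1 higher on 24 reads in SD and 12 in control (2.13, 1.02 to 4.67).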

How the data were processed

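Per the file headers, each of the 4 deposited files lists length, effective length, TPM and the estimated read count of 116546 transcripts. The submitters' processing notes name salmon, DESeq2 and mm10. Versions, read layout and strand setting were not stated in the sources used here. The estimated counts were deposited by the authors without normalization, and the TPM values are the authors' own, per effective length and library. Identifiers without version matched GENCODE M21 (GRCm38, the assembly mm10 denotes) for 115898 transcripts (99.4%), which were summed to 35427 genes. Between 0.339% and 0.366% of reads were unmatched. The 2 files of a group were averaged, rounded and kept as 1 library, so the planned edgeR quasi-likelihood test, DESeq2 Wald test and replicate block were not run. TMM factors came from edgeR 4.0.16 (R 4.3.3) over the 14907 genes kept by filterByExpr at a minimum count of 10, and exact conditional 95% intervals from SciPy 1.17.1. For folds, fewer than 3 reads were set to 3. DESeq2 1.42.0 size factors were an alternative.

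The members and lists were chosen with earlier results of these data known. All 10 members are named. Transcripts are named at 10 reads in either group and 5% of the TPM of the gene. Of each list, the 3 genes of highest mean CPM and those called are named. Cell type markers are instead given as sums, with Tmem119, P2ry12, Snap25 and Slc17a7 as examples. Other exceptions are said to be so, and 2 genes that this rule names are not reported here. No gene is named for a pattern like that of a member, since 1 library per group gives 1 ratio per gene. Promoter windows are RefSeq's (GRCm38.p6) and coding bases GENCODE's. Of the per-sample columns, 0 were left without a sample.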

Additional observations from a re-analysis of the deposited data

How the results depend on the processing

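Of 120 alternative values for the ratios of the 10 genes (10 planned settings and 2 on deposited TPM chosen after seeing the data), 107 stayed within the counting interval, 13 moved and 0 changed the direction of a called gene. Fkbp5 was called higher in 12 of 12 settings (2.06 to 3.05), Zbtb16 in 12 (4.04 to 4.92) and Map3k6 in 10 (1.97 to 7.09). Map3k6 fell short of the call with counts offset for transcript length (1.97) and with TPM over the median gene (1.98), where its short processed transcript gains weight. Nr3c1 was above 1 in 1 setting, deposited TPM (1.14), which shifts all genes by a median log2 of 0.216. The count of the 10 genes called higher was 3, and 5 by deposited TPM (Sgk1 2.28 and Ddit4 2.2 added) and 5 at 1.5-fold. The count called lower was 0, and 1 at 1.5-fold (Nr3c2), where 12.5% of all genes were called higher and 13.6% lower. With protein-coding transcripts only, 1 chaperone (Stub1, 2.18) and 5 further targets (Arrdc2, 2.41, and Gjb6, 2.74, added) were called higher, while calls over all genes were 936 of 14043 in place of 632 of 14907. By deposited TPM 5 further targets were higher (Cdkn1a, 2.25, and Nedd9, 2.12, added), and 1351 of 14907 over all genes. With the length offset 1 chaperone (Bag1, 0.473) and 1 metabolism or export gene (Abcb1b, 0.448) were lower, and likewise with TPM over the median gene (1 and 1). By total reads 2 further targets were lower (Irs2, 0.498, added). Over all 14907 genes, 974 were lower with the length offset, 964 with TPM over the median gene and 956 by total reads, in place of 842. The cause of these moves was not tested. By estimated reads in place of TPM, the share of Sgk1-201 was 76.5% in SD and 83.5% in control, and that of Map3k6-201 71.0% in SD and 32.7% in control. Leaving out 1 file of a group moved no count past 1.5 times, which the closeness of the files had largely fixed in advance. No paired analysis was possible because the 2 files of a group count as 1 library, which leaves no pairs. For genes with few reads, such as Zbtb16, depth limits the precision.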
